A study of Medicago truncatula and Hordeum vulgare with 90 samples.

Results

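NSP1 and NSP2 encode GRAS-family transcription factors of *Medicago truncatula*, a model legume, and their own transcripts were followed here under nutrient starvation, in mutants of each gene and in roots that overexpress each gene. Both were chosen by identifier, NSP1 as Medtr8g020840 and NSP2 as Medtr3g072710, and not by their values. They are 2 of the 50894 gene identifiers that the count tables hold. The tables give neither gene names nor positions, so no coordinates are given, and the pairing of names with identifiers was checked only through the overexpression roots described below.

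NSP1 and NSP2 were named for the nodulation signalling pathway, in which they act downstream of the calcium oscillations that rhizobial signals evoke in root cells. They can bind each other, and they are known to be needed for expression of strigolactone biosynthesis genes. Strigolactones are exuded from roots and promote the growth of arbuscular mycorrhizal fungi. The NSP2 transcript is a target of the microRNA miR171h, which directs its cleavage.

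Whole-root RNA was sequenced from seedlings of the wild-type ecotype A17 and of the mutants nsp1-1 and nsp2-2 in the A17 background, at 15 days. Each genotype was grown on plates of a modified medium that supplied or lacked phosphate and nitrate, which gives a fully fed regime (+P+N), a nitrate-free regime (+P-N), a phosphate-free regime (-P+N) and a regime without either (-P-N), and 12 groups of 3 libraries. Each mutant is represented by 1 allele, and its lesion is not given in the sources used here. Hairy roots, which grow from A17 after transformation with *Agrobacterium rhizogenes*, were sampled at 21 days in sand fed with both nutrients, as 4 groups of 3 libraries: empty vector (EV), a FLAG-tagged NSP1 behind the pLjUBI promoter (NSP1ox), a Myc-tagged NSP2 behind the pBdEF1a promoter (NSP2ox), and the same NSP2 construct made resistant to miR171h (miRR-NSP2ox). NSP1ox and NSP2ox thus differ in promoter and tag as well as in gene, and the +P+N of hairy roots held less phosphate than that of the seedling plates. Hairy roots carry the endogenous copy of both genes, so counts of a transgene and of the native gene cannot be told apart.

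The libraries summed to 16194286 to 25030726 counts in the 36 seedling roots and 18251230 to 25919307 in the 12 hairy roots, and each correlated best with a library of its own group. Replicates of a group were not duplicates, since the chi-square between any pair was at least 2.00 per gene in seedlings and 4.02 in hairy roots, above sampling noise. In hairy roots 2 libraries stood apart from their groups. EV replicate 1 differed from replicates 2 and 3 by 80.7 and 53.7 per gene, against 9.49 between those, and NSP2ox replicate 1 differed from its replicates by 25.9 and 24.99, against 4.10. Whether replicates came from separate plants is not given in the sources used here, so p-values measure the spread between these libraries. In seedling roots NSP1 was read 117 to 279 times per library and NSP2 50 to 239 times, and both passed the filter on low counts. Since roots were sequenced whole, fewer cells expressing a gene and less of its RNA per cell cannot be told apart, and the labelled tissue was not checked because no root markers are named in the sources used here. Levels are given below as raw counts or as CPM, counts scaled to library size after TMM normalization, which are not scaled for transcript length, so levels were compared between groups of a gene and not between the genes. At these depths the median coefficient of variation within a group was 10.9% for NSP1 and 10.4% for NSP2, against 7.20% and 10.02% from counting alone.

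In wild-type roots NSP2 rose under each starvation regime and NSP1 fell under both regimes that lacked phosphate, so that the transcripts moved in opposite directions. NSP2 was read 66, 73 and 88 times in the 3 A17 libraries under +P+N, 187, 172 and 229 times under +P-N, 112, 131 and 107 times under -P+N, and 238, 231 and 239 times under -P-N. Every starved library lay above all 3 fully fed libraries, and both nitrate-free regimes lay above the regime that lacked phosphate alone. Relative to +P+N, at 4.32 ± 0.347 CPM (SD, n = 3), NSP2 was 2.08-fold higher under +P-N (log2 fold change 1.06, SE 0.16), 1.46-fold higher under -P+N (0.54, SE 0.14) and 2.16-fold higher under -P-N (1.11, SE 0.12). By the quasi-likelihood test of edgeR, with Benjamini-Hochberg correction over all genes tested, the adjusted p values were 1.07e-04, 0.0117 and 9.13e-06, in that order. These regimes changed 57.1%, 29.1% and 60.5% of all genes tested, and all 3 comparisons share the +P+N libraries. The call at -P+N was lost when replicate 2 at -P+N was left out (log2 fold change 0.49, edgeR adjusted p 0.0523).

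NSP1 was read 211, 213 and 226 times in A17 under +P+N, 227, 279 and 221 times under +P-N, 175, 187 and 162 times under -P+N, and 168, 165 and 193 times under -P-N. In CPM the -P+N and -P-N libraries lay below all +P+N libraries, whereas +P-N libraries overlapped with them. From 12.4 ± 0.403 CPM at +P+N (SD, n = 3), NSP1 fell to 9.40 ± 0.345 CPM at -P+N, with a log2 fold change of -0.39 (SE 0.09, edgeR adjusted p 0.00778), and to 7.06 ± 1.17 CPM at -P-N, with a log2 fold change of -0.83 (SE 0.12, edgeR adjusted p 7.99e-05). The decrease was 1.31-fold and 1.78-fold. At +P-N the log2 fold change was -0.16 (95% interval -0.39 to 0.07, edgeR adjusted p 0.204), and without replicate 2 at +P-N it was -0.27, with an adjusted p of 0.0483.

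**Figure D1:**
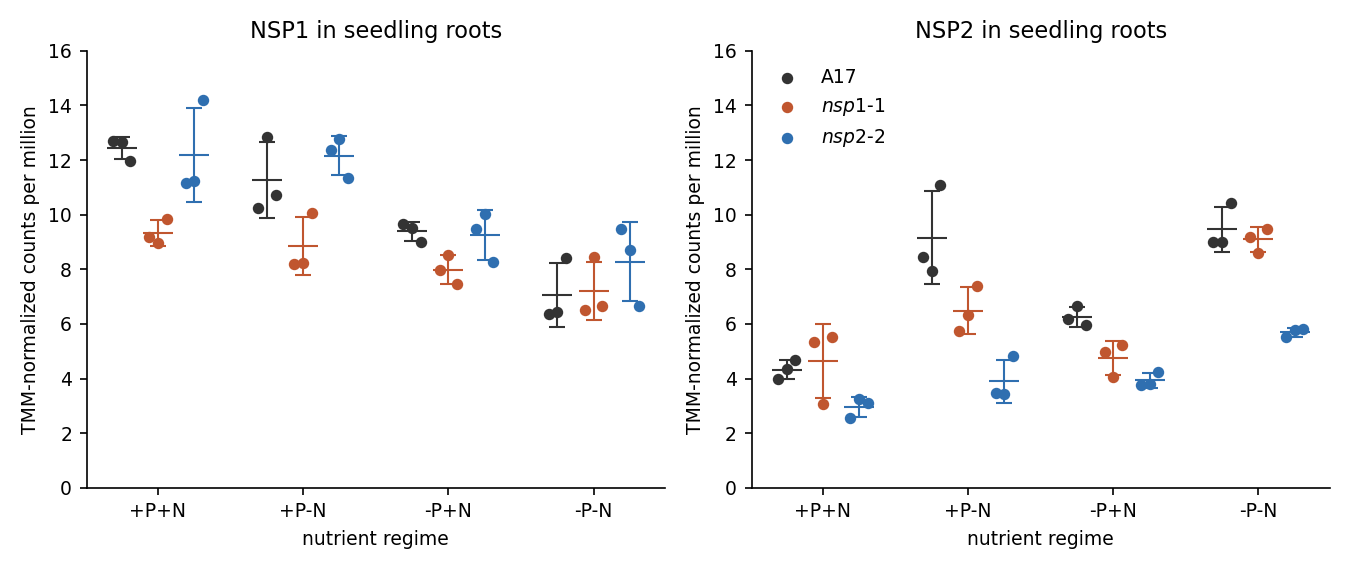
Levels of NSP1 (left) and NSP2 (right) in seedling roots, in TMM-normalized CPM, by nutrient regime (horizontal axis) and genotype (colour). Each point is a library, and the horizontal lines with bars give mean ± SD of 3 libraries. In A17, NSP1 declined from 12.4 CPM at +P+N to 7.06 CPM at -P-N while NSP2 increased from 4.32 to 9.47 CPM, and NSP2 in nsp2-2 lay below A17 in every regime.

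The starved regimes were also set against each other. Where nitrate was already lacking, withdrawal of phosphate left NSP2 at 9.47 against 9.15 CPM (log2 difference 0.06, 95% interval -0.23 to 0.35, edgeR adjusted p 0.783) but lowered NSP1 from 11.3 to 7.06 CPM (log2 fold change -0.67, SE 0.13, edgeR adjusted p 0.00372). This comparison changed 26.5% of genes tested. Where phosphate was already lacking, withdrawal of nitrate raised NSP2 from 6.27 to 9.47 CPM (log2 fold change 0.58, SE 0.11, edgeR adjusted p 0.00124) and lowered NSP1 from 9.40 to 7.06 CPM (-0.43, SE 0.13, edgeR adjusted p 0.016), among 46.7% of genes tested. The NSP1 call was lost without replicate 1 or 2 at -P-N or replicate 2 at -P+N, with log2 fold changes of -0.34, -0.35 and -0.42 and edgeR adjusted p values of 0.0764, 0.0776 and 0.0507. It was also lost when counts were scaled by library totals alone (log2 fold change -0.28, edgeR adjusted p 0.0872), a scaling chosen after the data were seen. Under that scaling the median gene was 0.15 to 0.245 higher (log2) in the 7 comparisons of nitrate-free with nitrate-fed roots, so that changes relative to the median gene, which TMM normalization gives, differ from changes per total counts by that much in those comparisons.

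A test of the phosphate by nitrate interaction asks whether starvation for both nutrients departs from the sum of the single effects on the log2 scale. For NSP2 the interaction was -0.50 (95% interval -0.91 to -0.09, p 0.0207), which did not pass adjustment by edgeR over all genes (adjusted p 0.0779), and for NSP1 it was -0.29 (95% interval -0.65 to 0.07, edgeR adjusted p 0.245). The interaction of 22.4% of genes tested passed. Leaving out replicate 2 at +P-N brought NSP2 to -0.59 with an edgeR adjusted p of 0.0426.

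For comparison, 8 carotenoid and strigolactone genes that the study names were examined in the same fits. They were chosen on these libraries, so their direction is not independent evidence. All 8 rose with NSP2 in A17 under each starvation regime, with median log2 fold changes of 2.31 under +P-N, 3.16 under -P+N and 3.57 under -P-N, while 28.6%, 14.4% and 30.5% of all genes tested were called higher and their median log2 change was 0.0092, 0.0044 and 0.0076. D27, which encodes the isomerase that opens strigolactone synthesis, rose by 2.29, 3.18 and 3.72 on the log2 scale, and PSY, the phytoene synthase that commits precursors to carotenoids, by 2.95, 6.67 and 5.20. Of the 8 genes, 7 were higher at -P-N than at +P-N, a comparison in which NSP2 did not pass the test and 13% of all genes were called higher. At -P-N against -P+N, where NSP2 was higher, 3 of the 8 were higher, 2 lower and 3 not called. In that comparison 46.7% of all genes were called.

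**Figure D2:**
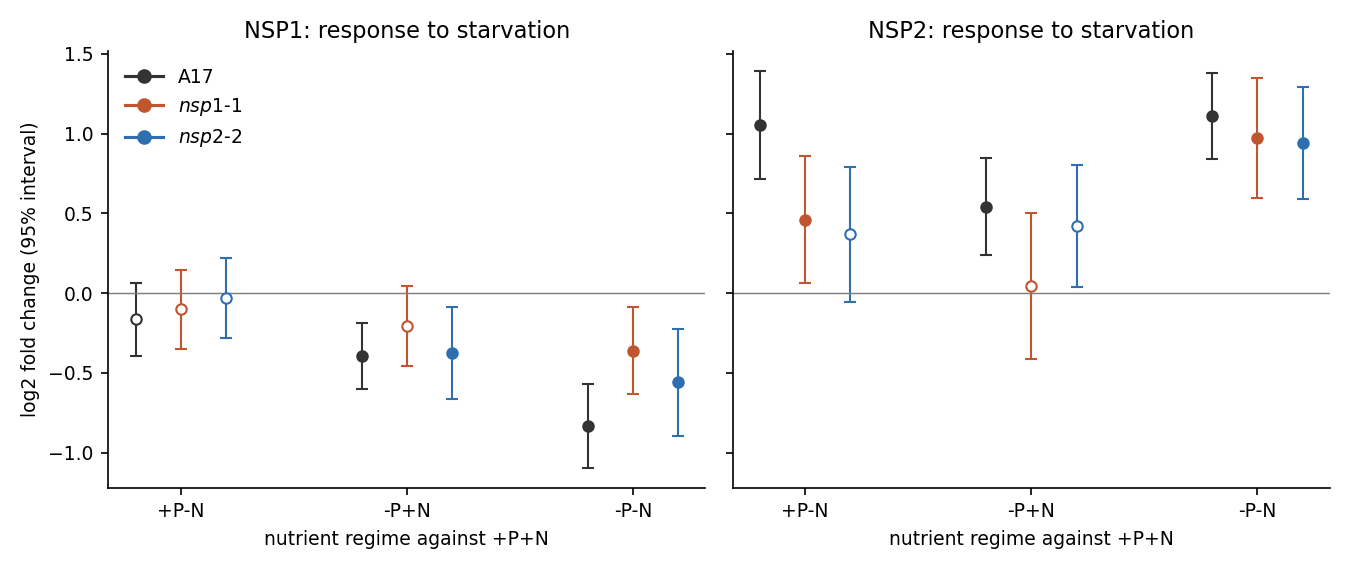
Log2 fold changes of NSP1 (left) and NSP2 (right) in each starvation regime relative to +P+N of the same genotype, with 95% intervals from edgeR. Filled symbols mark an adjusted p under 0.05 and open symbols the others. NSP2 lay above zero in all genotypes at -P-N (1.11 in A17, 0.98 in nsp1-1 and 0.94 in nsp2-2) and NSP1 below zero (-0.83, -0.36 and -0.56).

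The response at -P-N persisted in both mutants. In nsp1-1, NSP2 was read 101, 56 and 95 times at +P+N and 188, 209 and 216 times at -P-N, a 1.97-fold increase (log2 fold change 0.98, SE 0.17, edgeR adjusted p 2.66e-04). In nsp2-2, the mutated NSP2 transcript was read 50, 68 and 53 times at +P+N and 118, 138 and 146 times at -P-N, a 1.92-fold increase (0.94, SE 0.16, edgeR adjusted p 3.45e-04). In neither mutant did the groups overlap, and the regime changed 60.8% of genes tested in nsp1-1 and 58.8% in nsp2-2.

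The single-nutrient regimes gave smaller differences for NSP2 in the mutants. At +P-N, NSP2 was read 118, 159 and 164 times in nsp1-1, an increase of 0.46 (SE 0.19, edgeR adjusted p 0.0445, 57.6% of genes called), and 71, 70 and 105 times in nsp2-2, where the difference of 0.37 did not pass the test (95% interval -0.05 to 0.79, edgeR adjusted p 0.124, 57.1% of genes called). The call in nsp1-1 depended on 3 of the 6 libraries, since it was lost without replicate 2 at +P+N, which had the fewest NSP2 counts of its group (0.24, adjusted p 0.224), without replicate 2 at +P-N (0.47, adjusted p 0.0802) and without replicate 3 at +P-N (0.35, adjusted p 0.175), and with DESeq2 (0.46, adjusted p 0.0631). At -P+N, NSP2 was read 101, 75 and 82 times in nsp1-1, with a log2 difference of 0.05 (95% interval -0.41 to 0.51, edgeR adjusted p 0.868, 53% of genes called), and 74, 87 and 83 times in nsp2-2, with 0.42 (95% interval 0.04 to 0.81, edgeR adjusted p 0.0833, 35.6% of genes called). Across genotypes, 6 of 9 comparisons of starved with fed roots called NSP2 higher, 3 of 3 in A17, 2 of 3 in nsp1-1 and 1 of 3 in nsp2-2. With library totals as the only scaling, NSP2 in nsp2-2 at +P-N also passed (log2 fold change 0.60, edgeR adjusted p 0.0175).

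NSP1 also fell at -P-N in both mutants, with smaller estimates than in A17 (log2 fold change -0.83), in differences that did not pass adjustment. In nsp2-2 it was read 218, 235 and 243 times at +P+N and 203, 208 and 167 times at -P-N, from 12.2 ± 1.73 to 8.28 ± 1.46 CPM (log2 fold change -0.56, SE 0.15, edgeR adjusted p 0.00809). In nsp1-1 the mutated transcript was read 173, 163 and 170 times at +P+N and 133, 205 and 152 times at -P-N, from 9.33 ± 0.461 to 7.21 ± 1.07 CPM (-0.36, SE 0.13, edgeR adjusted p 0.0248). No -P-N library of either mutant reached the lowest +P+N library of the same genotype in CPM. The nsp1-1 call was lost without replicate 1 at -P-N (-0.29, adjusted p 0.0739), replicate 3 at -P-N (-0.31, adjusted p 0.0927) or replicate 3 at +P+N (-0.32, adjusted p 0.0883), and with library totals as the only scaling both calls were lost (-0.19, adjusted p 0.21 in nsp1-1 and -0.35, adjusted p 0.0674 in nsp2-2).

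At -P+N, NSP1 was read 187, 229 and 162 times in nsp2-2, with a change of -0.37 (log2) (SE 0.13, edgeR adjusted p 0.0455). That call was lost when any of 5 of the 6 libraries was left out, with edgeR adjusted p values of 0.0558 to 0.163 without replicate 1, 2 or 3 at +P+N or replicate 1 or 3 at -P+N and log2 fold changes of -0.43 to -0.26. In nsp1-1 it was read 162, 157 and 117 times, and the difference of -0.21 did not pass the test (95% interval -0.46 to 0.04, edgeR adjusted p 0.152). At +P-N, NSP1 was read 169, 207 and 223 times in nsp1-1 and 254, 259 and 248 times in nsp2-2, with log2 differences of -0.10 and -0.03 and 95% intervals of -0.35 to 0.15 and -0.28 to 0.22. Lack of nitrate with phosphate present thus gave no call for NSP1 in any of the 3 genotypes by edgeR or by DESeq2, with none at an unadjusted p under 0.05, and with library totals as the only scaling the differences in A17, nsp1-1 and nsp2-2 were 0.04, 0.09 and 0.20.

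None of the 12 tests of whether a mutant responded to a regime differently from A17 passed adjustment by edgeR or by DESeq2, and 3 of the 12 had an unadjusted p under 0.05 with each tool. For NSP2 these were the response to +P-N in nsp2-2, smaller than in A17 by 0.67 on the log2 scale (interaction -0.67, 95% interval -1.20 to -0.13, p 0.0176, edgeR adjusted p 0.262), and in nsp1-1 (-0.59, 95% interval -1.16 to -0.03, p 0.0404, edgeR adjusted p 0.442). For NSP1 it was the response to -P-N in nsp1-1 (0.47, 95% interval 0.10 to 0.85, p 0.0168, edgeR adjusted p 0.144). Among all genes tested, 2.04%, 1.36% and 4.69% passed in these interactions, and 31%, 15.4% and 0.702% in those of nsp1-1 with -P+N and of nsp2-2 with -P+N and -P-N. The interaction of NSP2 with nsp1-1 at -P+N was -0.51 (95% interval -1.07 to 0.05, edgeR adjusted p 0.163), and passed only when replicate 2 of nsp1-1 at +P+N was left out (-0.72, edgeR adjusted p 0.019).

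Both mutant alleles left a transcript that was counted in every library, 117 to 223 times for NSP1 in nsp1-1 and 50 to 146 times for NSP2 in nsp2-2. Since the lesions are not given in the sources used here, the level of the mutated transcript cannot check these labels. The study reports that nsp1 mutants lose D27 expression in roots. At -P-N, D27 was read 99, 131 and 153 times in A17. It was read 4, 6 and 14 times in nsp1-1 and 21, 12 and 17 times in nsp2-2. D27 is on the list chosen on these libraries, so this is not independent evidence. In CPM, NSP2 in nsp2-2 lay below every A17 library of the same regime, whereas in raw counts 1 pair at +P+N overlapped (68 in nsp2-2 replicate 2 against 66 in A17 replicate 1). The log2 fold changes against A17 were -0.56 at +P+N (SE 0.17, edgeR adjusted p 0.0925), -1.23 at +P-N (SE 0.17, edgeR adjusted p 4.43e-04), -0.69 at -P+N (SE 0.14, edgeR adjusted p 0.0051) and -0.72 at -P-N (SE 0.11, edgeR adjusted p 0.00319), so that 3 of 4 passed. These comparisons changed 4.52%, 11.4%, 27.9% and 5.58% of genes tested. The largest difference, at +P-N, was 3.90 ± 0.782 against 9.15 ± 1.70 CPM (SD, n = 3). Counts per gene do not tell a lower transcript level from loss of part of the counted sequence, since the lesion is not given.

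NSP1 in nsp1-1 was closer to the wild type. It was lower at +P+N, at 9.33 ± 0.461 against 12.4 ± 0.403 CPM (log2 fold change -0.42, SE 0.10, edgeR adjusted p 0.0208, 6.36% of genes called), with no overlap of the groups. This call was lost with DESeq2 (adjusted p 0.0563), with all groups in one fit (adjusted p 0.0567) and without 5 of the 6 libraries in turn, namely replicate 1 or 3 of A17 or any library of nsp1-1, with edgeR adjusted p values of 0.0511 to 0.0846. In the 3 starved regimes, +P-N first, then -P+N and last -P-N, the differences of -0.36, -0.24 and 0.04 did not pass, with edgeR adjusted p values of 0.135, 0.128 and 0.927, among 4.47%, 32.6% and 2.4% of genes called. At -P-N the libraries of nsp1-1 (6.51, 8.44 and 6.67 CPM) and A17 (6.35, 6.42 and 8.41 CPM) covered the same range.

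The level of each gene was next compared in the mutant of the other. NSP1 in nsp2-2 differed from A17 by log2 values of -0.05 and 0.10 in the phosphate-fed regimes (+P+N, then +P-N) and of -0.04 and 0.23 in the phosphate-free ones (-P+N, then -P-N), with overlapping libraries in every regime and no call of 4 by edgeR or DESeq2, nor any unadjusted p under 0.05. The 95% intervals ran from -0.30 to 0.20, -0.13 to 0.33, -0.29 to 0.22 and -0.11 to 0.58. NSP2 in nsp1-1 differed from A17 by 0.10 at +P+N and -0.05 at -P-N, with overlapping libraries, and by -0.50 at +P-N and -0.41 at -P+N, where all nsp1-1 libraries lay below those of A17. None of the 4 passed adjustment by edgeR or DESeq2, and 2 of the 4, those at +P-N and -P+N, had an unadjusted p under 0.05 with each tool (edgeR adjusted p 0.086 and 0.0599). At +P-N all pairs of same-numbered replicates deviated together weakly (correlations of 0.126 to 0.139), the only comparison with every pair over 0.1. Single pairs elsewhere reached higher values, up to 0.214 in nsp1-1 against A17 at -P+N. With the replicate number as a block, NSP2 in nsp1-1 at +P-N differed from A17 by -0.50 (SE 0.12) with an edgeR adjusted p of 0.0141. Without the filter on low counts it also passed (-0.50, edgeR adjusted p 0.0216).

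Ordered by mean level over the 12 seedling groups, NSP1 ran from A17 at -P-N (7.06 CPM) to A17 at +P+N (12.4 CPM). Neighbouring groups in that order overlapped throughout except between A17 at -P+N (9.40 CPM) and A17 at +P-N (11.3 CPM), and the 4 groups above that gap were A17 and nsp2-2 in the regimes that supplied phosphate. NSP2 ran from nsp2-2 at +P+N (2.97 CPM) to A17 at -P-N (9.47 CPM), with gaps above nsp2-2 at +P+N, above nsp1-1 at -P+N (4.75 CPM), above nsp2-2 at -P-N (5.70 CPM) and above nsp1-1 at +P-N (6.49 CPM). The highest 3 groups, A17 at -P-N and +P-N and nsp1-1 at -P-N, overlapped with each other in that order. Over single libraries NSP1 varied 2.23-fold and NSP2 4.34-fold, and among genes tested in a library they stood between percentiles 36.9 and 53.3 and between percentiles 25.4 and 47.3.

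Because NSP1 and NSP2 were counted in the same library, their ratio is free of any scaling between libraries, and its changes between groups do not depend on transcript length. NSP2 counts were 0.313, 0.343 and 0.389 times NSP1 counts in A17 at +P+N, and 1.42, 1.40 and 1.24 times at -P-N. At +P-N the ratios were 0.824, 0.616 and 1.04, and under -P+N they were 0.640, 0.701 and 0.660. The ratio thus rose with the withdrawal of either nutrient, and every starved A17 library lay above the fed ones.

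Over all 36 libraries, the log2 ratio (with 0.5 counts added) was 0.83 higher without nitrate than with it, a 1.78-fold change, and 0.78 higher without phosphate than with it, a 1.72-fold change. Each difference was positive in 6 of 6 strata of genotype and other nutrient, with ranges of 0.38 to 1.21 and 0.30 to 1.13. A two-sided permutation test that shuffled libraries within strata gave a p of 1e-05 for each, the smallest that 100000 resamples can give, and adjusting over the pair left both at 1e-05. In A17 alone the differences were 1.11 and 0.84, with an exact permutation p of 0.005 for each, the smallest that its libraries can give. The starvation groups are those tested above, so these ratios restate the same libraries and are not further replicates.

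**Figure D3:**
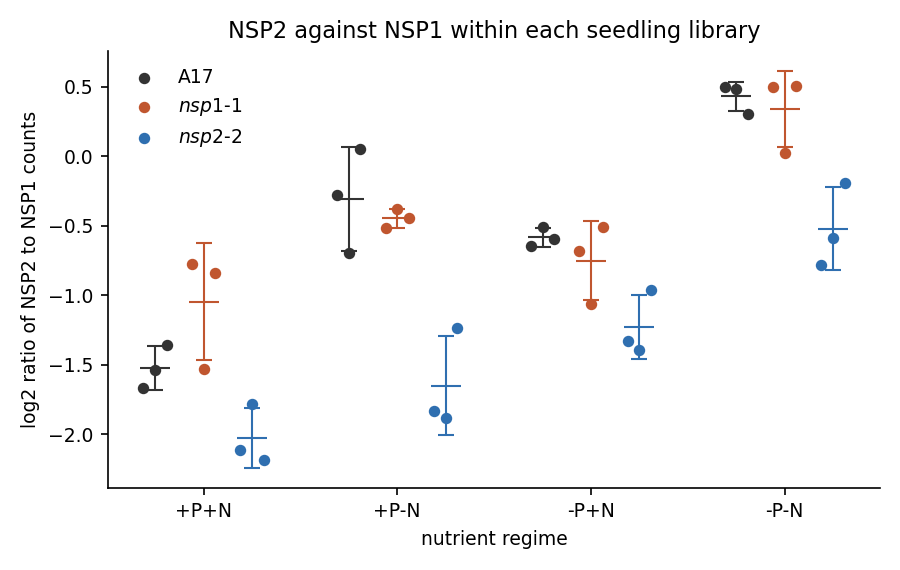
Log2 ratio of NSP2 to NSP1 counts within each seedling library (vertical axis), by nutrient regime and genotype. Points are libraries and bars give mean ± SD of 3 libraries. Counts are not scaled for transcript length, so only differences between groups carry meaning. The A17 mean rose from -1.52 at +P+N to 0.43 at -P-N, and nsp2-2 lay lowest in every regime.

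The mutants were described in the same way. In nsp2-2 the mean log2 ratio was -2.03 when fully fed, -1.65 under +P-N, -1.23 under -P+N and -0.52 under -P-N, and in nsp1-1 it was -1.05, -0.45, -0.75 and 0.34. In A17 it was -1.52, -0.31, -0.58 and 0.43. All genotypes had their lowest mean ratio at +P+N and their highest at -P-N, and nsp2-2 was the genotype in which -P+N stood above +P-N, a difference in order that was not tested. Across all 36 libraries the log2 levels of NSP1 and NSP2 had a Pearson correlation of -0.52, and within A17, nsp1-1 and nsp2-2, each over 12 libraries of 4 regimes, it was -0.57, -0.45 and -0.71. These are descriptions of libraries that share regimes and scaling. By correlation with NSP1 over all 36 libraries, NSP2 ranked 2475 from the lowest among the 24630 genes tested. An opposite course was thus not particular to this pair.

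Genes with the most similar course over the 36 libraries were ranked by Pearson correlation of log2(CPM + 0.5) among 24629 other genes, as a description. NSP2 was followed most closely by Medtr3g058220 (0.92) and Medtr2g018630 (0.91) and ran most nearly opposite to Medtr3g015420 (-0.90) and Medtr6g023990 (-0.89). NSP1 was followed by Medtr2g017630 and Medtr4g065113 (both 0.83) and ran opposite to Medtr8g080570 and Medtr6g066190 (both -0.80). The tables used here do not name these identifiers. All points share the regimes that separate the libraries, so the correlations carry no p.

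In hairy roots the identifier of each overexpressed gene rose in the roots that carried its construct. NSP1 was read 630, 477 and 557 times in EV and 38443, 39287 and 40952 times in NSP1ox, from 28.7 ± 5.46 to 1909 ± 27.1 CPM (SD, n = 3). This 66.4-fold increase (log2 fold change 6.05, SE 0.13, edgeR adjusted p 2.44e-09) was the 9th largest of 24003 genes tested, of which 11.7% were called. NSP2 was read 56, 73 and 67 times in EV, 1105, 1678 and 1977 times in NSP2ox and 1287, 1513 and 1395 times in miRR-NSP2ox. The increase was 21.1-fold in NSP2ox (4.40, SE 0.18, edgeR adjusted p 2.59e-08, 25.7% of genes called) and 20.2-fold in miRR-NSP2ox (4.34, SE 0.09, edgeR adjusted p 9.75e-11, 30.6% of genes called). These increases were the 45th largest of 24004 genes tested in NSP2ox and the 48th largest of 24003 in miRR-NSP2ox. All 3 comparisons share the EV libraries. The identifiers therefore matched the labelled constructs, and NSP1 reached a higher fold over its own EV level than NSP2 did over its own, with different promoters and no test of that difference. Without EV replicate 1 the log2 fold change of NSP1 in NSP1ox was 6.21, and those of NSP2 were 4.35 in NSP2ox and 4.29 in miRR-NSP2ox. Without NSP2ox replicate 1 NSP2 in NSP2ox was at 4.58.

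The miR171h-resistant construct did not give a detectably higher NSP2 level than the native one. Counts per gene include the endogenous copy, and whole and cleaved transcripts were not counted apart. NSP2 was at 68.3 ± 2.51 CPM in miRR-NSP2ox and 71.0 ± 17.2 CPM in NSP2ox, and the libraries overlapped. The log2 difference was -0.06, with a 95% interval of -0.33 to 0.21 and an edgeR adjusted p of 0.8, and the upper bound corresponds to a level 1.16-fold higher in miRR-NSP2ox. Without replicate 2 of NSP2ox, its highest library in CPM (87.2 against 52.9 and 72.8), the difference was 0.11, and without replicate 1 of NSP2ox, which stood apart and was its lowest, it was -0.23 (edgeR adjusted p 0.0536). Over all genes tested the same libraries differed in 20.5%. Of the 8 carotenoid and strigolactone genes, 6 were higher in miRR-NSP2ox than in NSP2ox, as were 11.7% of all genes, with a median log2 difference of 0.53 against -0.01 for all genes. The study chose its list partly for induction in roots that overexpress miR171h-resistant NSP2, so this count is not independent evidence. Without NSP2ox replicate 1 the count was 5 of 8. The highest was GGPPS, which makes the precursor of carotenoids, at 1.03, and CRTISO, a carotenoid isomerase, was at 0.55.

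Overexpression of NSP2 was accompanied by a lower NSP1 transcript. NSP1 was read 280, 241 and 339 times in NSP2ox and 223, 325 and 185 times in miRR-NSP2ox, against 630, 477 and 557 times in EV. Every NSP2-overexpressing library held fewer NSP1 counts than every EV library, in counts and in CPM. At 12.8 ± 0.517 CPM in NSP2ox NSP1 was 2.24-fold lower than in EV (log2 fold change -1.16, SE 0.12, edgeR adjusted p 3.25e-05), and at 11.9 ± 2.98 CPM in miRR-NSP2ox it was 2.42-fold lower (-1.27, SE 0.17, edgeR adjusted p 1.77e-04). The groups share EV, whose libraries spread from 23.98 to 34.7 CPM, and with any library left out the log2 fold change stayed between -1.27 and -0.9996 in NSP2ox and between -1.49 and -1.12 in miRR-NSP2ox, with each adjusted p under the threshold of 0.05. EV replicate 1, which stood apart and had the highest NSP1 level of its group, was the library whose removal gave the smallest decreases, -0.9996 in NSP2ox (edgeR adjusted p 1.87e-05) and -1.12 in miRR-NSP2ox (edgeR adjusted p 1.51e-04). A change of this size or larger in either direction was seen in 8.55% and 6.45% of genes tested. Between the NSP2 constructs NSP1 did not differ detectably (-0.11, 95% interval -0.44 to 0.22, edgeR adjusted p 0.668).

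In the reverse direction no such difference was detected. NSP2 was read 68, 67 and 52 times in NSP1ox and 56, 73 and 67 times in EV, and the groups overlapped. The log2 difference was -0.16 (SE 0.21, edgeR adjusted p 0.694; -0.21 without EV replicate 1), with a 95% interval of -0.62 to 0.31 that also holds moderate changes at counts this low. Of the 8 carotenoid and strigolactone genes, 5 were lower in NSP1ox than in EV (median log2 difference -0.55), as were 5.16% of all genes, while all 8 were higher in NSP2ox (median 1.15) and in miRR-NSP2ox (median 1.53), as were 14.2% and 15.9% of all genes. The medians over all genes were -0.0026, 0.0043 and 0.0020, in that order. The rises with the NSP2 constructs are not independent evidence, since the study chose its list partly for induction by NSP2 overexpression. Without EV replicate 1, a setting chosen after the data were seen, 4 of the 8 were lower in NSP1ox, 7 were higher in NSP2ox and 8 in miRR-NSP2ox, and without NSP2ox replicate 1, 7 were higher in NSP2ox. In NSP1ox, GGPPS fell by 3.23 on the log2 scale and D27 differed by 0.20, which did not pass the test (edgeR adjusted p 0.760). In NSP2ox, D27 rose by 2.05 and PSY by 2.20.

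**Figure D4:**
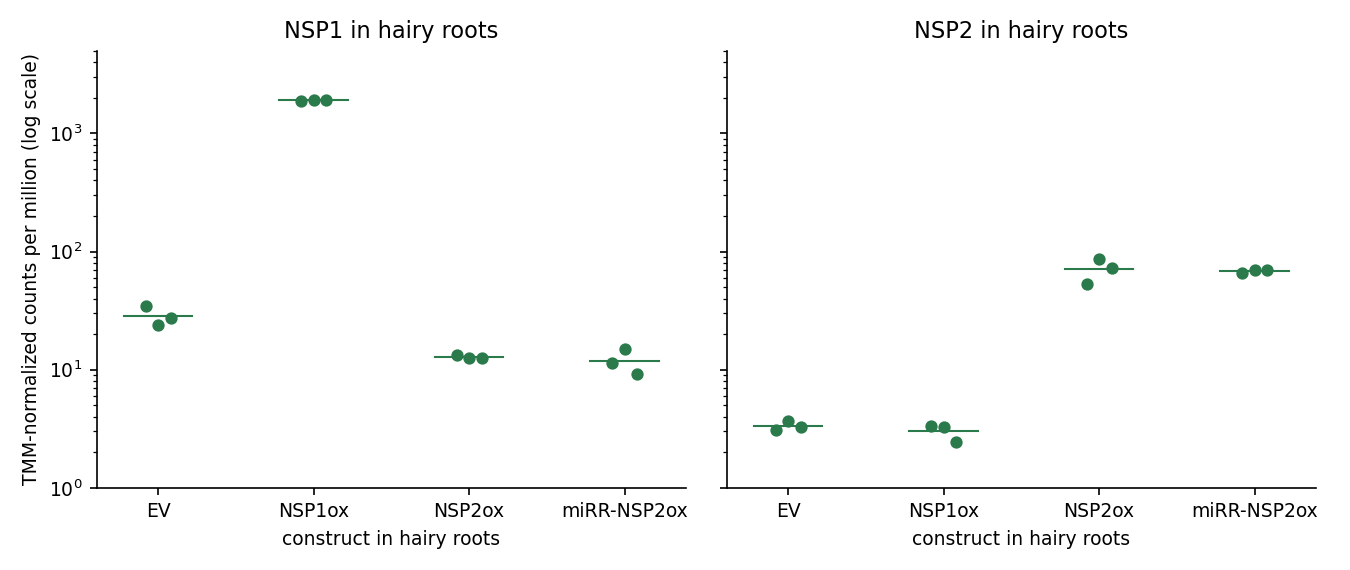
Levels of NSP1 (left) and NSP2 (right) in hairy roots in TMM-normalized CPM on a log scale, by construct. Each point is a library and each line the mean of 3 libraries. NSP1 stood at 1909 CPM in NSP1ox and at 12.8 and 11.9 CPM in the NSP2 constructs against 28.7 CPM in EV, and NSP2 at 71.0 and 68.3 CPM in the NSP2 constructs against 3.35 CPM in EV.

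The 5 identifiers on either side of each gene in the order of the table were examined as a description, of which 6 of 10 passed the filter for each gene. In NSP1ox the tested neighbours of NSP1 had log2 fold changes between -0.45 and 0.62, with edgeR adjusted p values of 0.0611 and above. None of these 6 was called, where 11.7% of all genes were, so the absence of a call among them says little. The other identifiers were not tested. The neighbours of NSP2 lay between -0.22 and 0.19 in NSP2ox and between -0.44 and 0.15 in miRR-NSP2ox, where 2 of 6 were lower. Beside NSP1, 1 of the 6 neighbours changed in NSP2ox, Medtr8g020870, which rose by 1.37 (edgeR adjusted p 8.21e-05) and was named after its value was seen. It was at 0.04 in miRR-NSP2ox, where NSP1 was lower too and another of the 6, Medtr8g020880, rose by 0.27 (edgeR adjusted p 0.0136). Over all genes tested, 25.7% were called in NSP2ox and 30.6% in miRR-NSP2ox. Thus 1 or 2 calls among 6 neighbours do not set them apart from other genes.

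**Figure D5:**
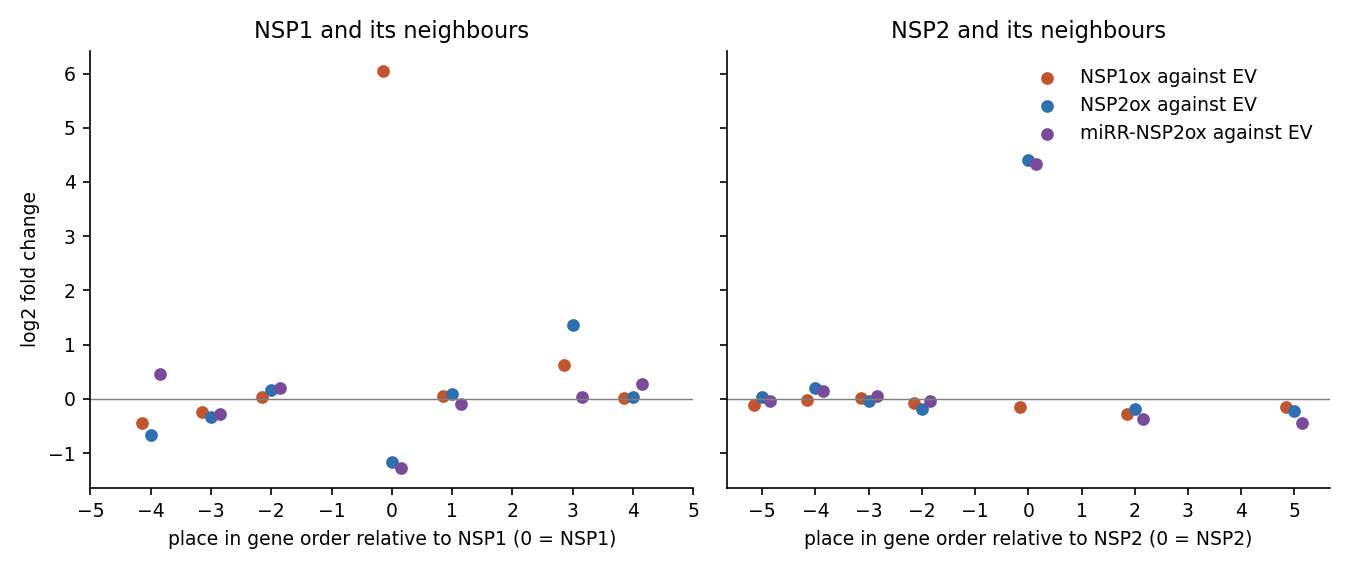
Log2 fold changes against EV in hairy roots of NSP1 (left) and NSP2 (right), at place 0, and of the neighbouring identifiers that passed the filter, by place in the order of identifiers. NSP1 rose by 6.05 in NSP1ox and NSP2 by 4.40 and 4.34 in the NSP2 constructs, and the neighbours lay between -0.66 and 1.37.

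In A17 seedlings at -P-N, where NSP1 fell by 0.83 and NSP2 rose by 1.11 on the log2 scale, neighbours changed in either direction, 1 higher and 3 lower of 6 beside NSP1 and 3 higher and 3 lower of 6 beside NSP2, where 60.5% of all genes tested were called and 30.5% were called higher. Their values ran from -1.87 to 0.58 and from -0.37 to 0.99. The settings for strand and for reads that map to several genes are not given in the sources used here, so counts from an overlapping or antisense transcript could not be separated from those of either gene.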

How the data were processed

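The authors mapped paired-end reads of poly(A)-enriched root RNA with STAR to the Mt4.0v1 genome, assigned them to genes with featureCounts and deposited the raw counts, as whole numbers without normalization. Tool versions, strand and multiple mapping are not given in the sources used here. The 42 barley libraries were not used. A gene entered the tests if its CPM was no lower than that of 10 counts in the median library of its table in 3 or more libraries, 0.492 CPM in seedlings and 0.494 in hairy roots, which left 24630 and 24004 genes. The tables were normalized and tested apart.

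Comparisons of 2 groups were fitted on their 6 libraries, and interactions on 12, by the quasi-likelihood test in edgeR on TMM-normalized libraries, adjusting p over all genes tested by Benjamini-Hochberg (threshold 0.05). The standard error is the log2 fold change divided by the root of F, and intervals are 95%. With 3 libraries in each of 2 groups, exact permutation of a single gene reaches no p under 0.1. The members were fixed by identifier, and beside them were named their 5 neighbours on either side, the genes most like them in course and the 8 genes the study names; members, lists and alternatives were chosen with earlier results of these data known. A list of 9 symbiosis genes was not used, since no source used here pairs the identifiers with names. Alternatives were RLE size factors, no filter, DESeq2, all groups in one fit, a replicate block, each library left out and, after the data were seen, library totals. Same-numbered replicates deviated together in every pair (correlations over 0.1) in 1 of 30 comparisons, nsp1-1 with A17 at +P-N. On simulated counts with 200 changed genes, edgeR recovered 180 in A17 at -P-N against +P+N, 181 in NSP2ox against EV and 140 in the interaction of nsp1-1 with -P-N, none with the wrong sign. It also called 6, 9 and 8 unchanged genes, in that order. The planted log2 changes were 1 or 2 in either direction, with the same spread for all genes and libraries. Most seedling changes of NSP1 and NSP2 were smaller, so these counts do not measure how often such changes are detected. Software was R 4.3.3, edgeR 4.0.16, limma 3.58.1, DESeq2 1.42.0, Python 3.11.15 and matplotlib 3.10.9.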

Additional observations from a re-analysis of the deposited data

How the results depend on the processing

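Of 62 results, 25 passed their test, and 18 of these 25 passed under every alternative, among them NSP2 in A17 at +P-N and -P-N, NSP1 in A17 at -P+N and -P-N against +P+N, NSP2 at -P-N in both mutants, NSP2 in nsp2-2 against A17 in 3 regimes and every call in hairy roots. None reversed. RLE size factors changed no call. DESeq2 lost NSP1 in nsp1-1 against A17 at +P+N (-0.42), NSP1 in nsp2-2 at -P+N (-0.38) and NSP2 in nsp1-1 at +P-N (0.46). One fit of all groups lost NSP1 in nsp1-1 against A17 at +P+N (-0.42). Without a filter, NSP2 in nsp1-1 against A17 at +P-N was called (-0.50). With the replicate block that result was called too (-0.50) and NSP1 in nsp2-2 at -P+N was lost (-0.37), and the block changed no other call. Library totals lost NSP1 in A17 at -P-N against -P+N (-0.28), in nsp1-1 at -P-N (-0.19) and in nsp2-2 at -P+N (-0.33) and -P-N (-0.35), and added NSP2 in nsp2-2 at +P-N (0.60). The cause of these changes was not tested.

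With a library left out, 427 of 450 values kept their call, 20 lost it and 3 gained it. Calls were lost in NSP1 in A17 at -P-N against -P+N (-0.56 to -0.34), NSP1 in nsp1-1 against A17 at +P+N (-0.46 to -0.39), NSP1 in nsp1-1 at -P-N (-0.49 to -0.29), NSP1 in nsp2-2 at -P+N (-0.43 to -0.26), NSP2 in A17 at -P+N (0.49 to 0.60) and NSP2 in nsp1-1 at +P-N (0.24 to 0.60). Calls were gained in NSP1 in A17 at +P-N (-0.27 to -0.10), the phosphate by nitrate interaction of NSP2 (-0.59 to -0.34) and the interaction of NSP2 with nsp1-1 at -P+N (-0.72 to -0.37). Where a group was left with 2 libraries, the spread was pooled over the fit. At 50 to 279 counts per seedling library, counting alone gave a median error of 7.20% for NSP1 and 10.02% for NSP2, which limits the smallest change that 3 libraries can show.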
